A study of Mus musculus with 16 samples.

Results

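The 10 genes described here encode subunits of the AMPA and NMDA receptors, the ion channels that carry most fast excitatory transmission in the brain. They were chosen by name, as *Gria1*, *Gria2*, *Gria3* and *Gria4* for the AMPA receptor and *Grin1*, *Grin2a*, *Grin2b*, *Grin2c*, *Grin2d* and *Grin3a* for the NMDA receptor, out of 37583 genes in the deposited files. The rule uses gene names and no measured value, but the family was picked with earlier results of these data known. All 10 had enough counts for every test. RNA was sequenced from cortex and cerebellum. The mice were 4 wild types and 4 carriers of the A391T (A393T) variant of *Slc39a8*, the gene of the metal transporter ZIP8. This gave 4 groups, wild-type cortex, A391T cortex, wild-type cerebellum and A391T cerebellum, with 4 libraries each and 1 library per region and mouse. All mice were of the C57BL/6J strain and none is described as treated. The wild-type mice were male and 12 weeks old, while the age, sex and zygosity of the A391T mice are not given in the sources used here. Libraries are called by the region and mouse in their labels, so that CTX447 and CBLM447 are the cortex and cerebellum of 1 wild-type mouse.

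Glutamate opens both kinds of channel. AMPA receptors are assemblies of GluA1 to GluA4, and an edited GluA2 subunit makes the channel nearly impermeable to calcium. NMDA receptors need the GluN1 subunit, the product of *Grin1*, together with GluN2 or GluN3 subunits, and open only when a co-agonist, glycine or D-serine, is also bound. The GluN2 subunit sets how long the channel stays open and how strongly magnesium blocks it. In the rodent brain GluN2B is known from forebrain neurons, GluN2C from mature cerebellar granule cells, and GluA1 and GluA4 also from Bergmann glia, the astrocytes that wrap Purkinje cell synapses.

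Counts on genes ran from 20813432 to 30497206 per library. The tissue labels were checked against marker lists. In wild-type mice 7 of 7 granule cell markers and 6 of 7 Purkinje cell markers were higher in cerebellum, and 6 of 7 markers of cortical excitatory neurons were higher in cortex, each by at least 2-fold. Choroid plexus markers, at 2841 and 6205 TPM in sum for the median A391T and wild-type cerebellum library, were at 43.0 TPM in CBLM479 and 41.6 TPM in CBLM462. Striatal markers summed to 265 TPM in CTX461 against a median of 779 TPM in A391T cortex and 594 to 812 TPM in wild-type cortex. In cerebellum they ran from 251 to 288 TPM in wild-type and from 250 to 310.5 TPM in A391T mice. How much striatal tissue the cortex libraries hold was not tested. *Slc17a6*, the vesicular glutamate transporter of subcortical neurons, stood at 82.9 CPM (counts scaled by the library total) in CBLM461 and 53.8 CPM in CBLM479 against 16.5 to 31.0 CPM in the other cerebellum libraries. CBLM445 also stood apart, with Purkinje cell markers at 9933 TPM against 6872 to 7515 TPM in the other A391T cerebellum libraries and granule cell markers at 2281 TPM against 2692 to 3003 TPM. Its counts differed from theirs by a chi-square per degree of freedom of 62.3 to 74.5, against 7.23 to 8.13 among the other 3. Without CBLM445 the number of subunits called was 6 between regions in A391T mice, beside 4065 of 16226 genes. Between genotypes in cerebellum it was 0, beside 0 of 15849 genes. Among the wild-type cortex libraries CTX480 had the lowest markers of cortical excitatory neurons, at 2452 TPM against 2908 to 3057 TPM, and the highest markers of cortical interneurons, at 2734 TPM against 1914 to 2105 TPM. Its chi-square per degree of freedom was 15.1 to 34.4, against 5.10 to 12.0 among the other 3. Without CTX480 the number of subunits called was 6 between regions in wild-type mice, beside 4093 of 16268 genes. It was 0 between genotypes in cortex, beside 4 of 15946 genes, and 0 for the interaction, beside 0 of 16765. CBLM461, CBLM462, CBLM479 and CTX461 were left out together in an alternative, in which 6 of 10 subunits again passed in each region comparison. Beside them passed 4097 of 16272 genes in wild-type and 4372 of 16468 in A391T mice. In each genotype comparison 0 of 10 passed, beside 0 of 15961 genes in cortex and 0 of 15950 in cerebellum. The deposited RPKM table names 8 of the 16 libraries differently from the count files, which exchange 4 mice between the genotypes. Here the count files decide the names, and values under the other names are given where a call changed.

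The 10 subunits are related but separate genes. Proteins of *Gria1* to *Gria4* were from 68.5% to 73.3% identical in pairwise alignment, while *Gria2* and *Grin2d*, the pair least alike, shared 25.5% of aligned residues. The longest run of residues common to all 10 proteins was 7 residues long and lies in the channel's conserved pore-lining segment. Of other genes only *Grin3b*, an NMDA receptor gene outside the 10, was searched, and it holds this run too. The coding bases of the run are shown to compare the genes over a stretch that all 10 proteins share. They are given 5′ to 3′ on the coding strand of NCBIM37 (mm9), with capitals for the 13 of 21 positions at which all 10 genes have the same base.
Gria1, chr11:57097076-57097096, plus strand: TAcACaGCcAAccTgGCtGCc
Gria2, chr3:80506494-80506514, minus strand: TAcACgGCtAActTaGCtGCc
Gria3, chrX:38974038-38974058, plus strand: TAcACtGCaAAccTtGCtGCt
Gria4, chr9:4462020-4462040, minus strand: TAcACtGCtAAtcTgGCtGCa
Grin1, chr2:25152722-25152742, minus strand: TAcACtGCcAAccTgGCaGCc
Grin2a, chr16:9653543-9653563, minus strand: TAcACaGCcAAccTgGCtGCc
Grin2b, chr6:135722265-135722285, minus strand: TAcACtGCcAActTaGCcGCc
Grin2c, chr11:115115066-115115086, minus strand: TAcACgGCcAAtcTgGCaGCc
Grin2d, chr7:53109652-53109672, minus strand: TAtACaGCcAAtcTgGCtGCc
Grin3a, chr4:49783345-49783365, minus strand: TAcACaGCgAActTgGCtGCt
Reads were 50 bases long. Among the 45 pairs of members, the longest run of identical bases between annotated transcripts was 57 bases, and 4 pairs had a run of at least 50 bases, so that few reads could fit 2 members equally well. Counting ignored strand. In the annotation used here, which is not the release that gave the deposited gene lengths, 13.5% of the exon bases of *Grin1* are overlapped by a gene on the other strand, *E130003G02Rik*, against 3.33% or less for each of the other 9 members. These shares may differ for the exons that were counted. HTSeq by default sets a read that overlaps 2 genes apart as ambiguous, a class that held 2.20% to 2.75% of each library's total. Where such an overlap held, its reads would be missing from the counts of *Grin1* rather than added to them.

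Levels are given in TPM, which here are counts per base of the deposited gene length, set to a common sum over genes in every library. In wild-type cortex *Gria2* was highest, at 338 ± 10.7 TPM (SD, n = 4), followed by *Gria1* at 243 ± 26.4 TPM, *Grin1* at 215 ± 21.1 TPM, *Gria3* at 169 ± 7.26 TPM, *Gria4* at 64.4 ± 2.71 TPM and *Grin2c* at 53.6 ± 5.14 TPM. The other 4 subunits were far lower, with *Grin2d* at 15.8 ± 2.54 TPM, *Grin2b* at 15.6 ± 3.67 TPM, *Grin2a* at 9.46 ± 6.29 TPM and *Grin3a* at 8.32 ± 0.999 TPM. The ranges of neighbours in this order overlapped for *Gria1* and *Grin1*, *Grin2d* and *Grin2b*, *Grin2b* and *Grin2a*, and *Grin2a* and *Grin3a*. Within libraries *Gria1* was above *Grin1*, and *Grin2b* above *Grin2a*, in 4 of 4, while *Grin2d* was above *Grin2b*, and *Grin2a* above *Grin3a*, in 2 of 4. In wild-type cerebellum *Gria1* and *Grin2c* led, at 413 ± 15.6 TPM and 402 ± 38.1 TPM with overlapping ranges, and *Gria4* came next at 322 ± 15.2 TPM. *Gria2* stood at 180 ± 13.6 TPM and *Grin1* at 175 ± 10.7 TPM, again with overlapping ranges. Below them were *Gria3* at 77.8 ± 4.77 TPM, *Grin2d* at 17.2 ± 0.173 TPM, *Grin3a* at 6.79 ± 0.621 TPM, *Grin2a* at 4.63 ± 1.95 TPM and *Grin2b* at 0.803 ± 0.183 TPM. The ranges of *Grin3a* and *Grin2a* overlapped, with *Grin3a* higher in 4 of 4 libraries. *Grin2b* was last in all 4 libraries, on 43 to 66 counts per library. The A391T groups gave the same order of means except that *Grin3a*, at 8.96 ± 0.680 TPM, stood above *Grin2a*, at 8.59 ± 1.74 TPM, in A391T cortex, where the ranges of that pair overlapped.

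**Figure D1:**
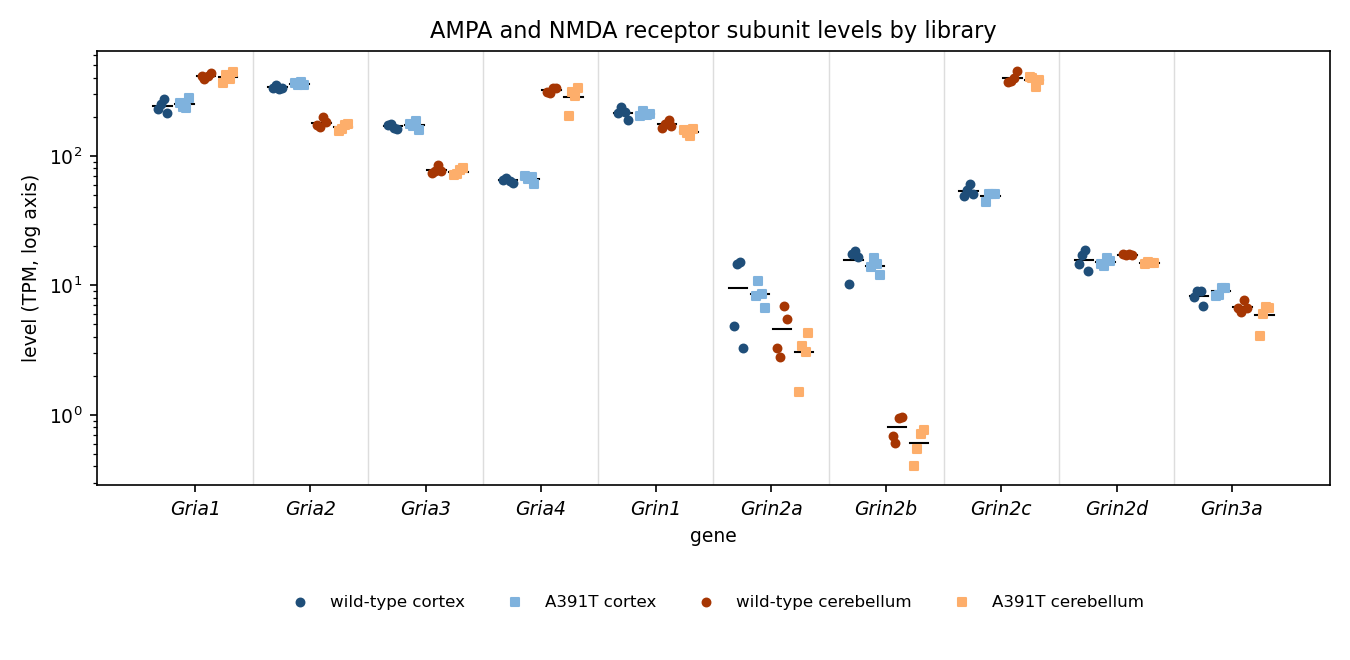
Level of each subunit in each library, in TPM on a log axis, with circles for wild-type and squares for A391T mice, blue for cortex and orange for cerebellum, and a black line at each group mean. *Gria4* and *Grin2c* sit higher in all cerebellum libraries than in all cortex libraries, *Grin2b* sits lower, and the 4 wild-type cortex libraries of *Grin2a* spread from 3.27 to 15.2 TPM.

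The comparison of cerebellum with cortex asks how the subunit makeup differs between regions with different neurons. In wild-type mice 6 of 10 subunits passed an adjusted p under 0.05 and a 2-fold change, 2 of them higher in cerebellum and 4 higher in cortex. Over all genes tested 24.7% passed, 10.5% higher in cerebellum and 14.2% higher in cortex. By adjusted p alone 9 of 10 subunits passed, beside 67.8% of all genes. In A391T mice 6 of 10 passed both criteria, again 2 higher in cerebellum and 4 higher in cortex, beside 24.7% of all genes with 9.8% higher in cerebellum and 14.9% higher in cortex. By adjusted p alone 9 of 10 passed in A391T mice, beside 62.8% of all genes. TPM ranges of the regions did not overlap for 6 of 10 subunits in wild-type mice, beside 65.9% of all genes, and for 9 of 10 in A391T mice, beside 61.8%. Over all genes the median log2 fold change, cerebellum over cortex, was 0.02 in wild-type mice. In bulk tissue, fewer cells of a type and less RNA per cell cannot be told apart.

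Among the AMPA receptor subunits, *Gria4* rose in cerebellum while *Gria2* and *Gria3* fell. GluA4, the product of *Gria4*, has fast kinetics. *Gria4* stood at 64.6, 68.0, 63.9 and 61.4 TPM in CTX447, CTX448, CTX479 and CTX480 and at 312, 306, 334 and 336 TPM in the cerebellum libraries of the same mice in that order. The regions lay far apart, with means 5.00-fold higher in cerebellum and a log2 fold change of 2.17 (SE 0.06, adjusted p = 8.52e-11). In A391T mice the cortex libraries CTX445, CTX446, CTX461 and CTX462 held 69.5, 66.6, 68.3 and 60.2 TPM and the cerebellum libraries 204, 309, 287 and 333 TPM. CBLM445, the library with high Purkinje and low granule cell markers, was the low one, and the log2 fold change was 1.99 (SE 0.12, adjusted p = 2.20e-07) with it and 2.09 without it.

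*Gria2*, the subunit that limits calcium entry, was nearly uniform within groups. Its wild-type levels were 333, 354, 330 and 336 TPM in cortex and 172, 167, 198 and 181 TPM in cerebellum, in the order of mice above. All cortex libraries lay above all cerebellum libraries. The log2 fold change was -1.06 (SE 0.06, adjusted p = 3.76e-08), close to the 2-fold criterion, and on the TPM scale the cortex mean was 1.88-fold higher. With library totals in place of TMM scaling it was -0.94 and with the mice that both sources name alike -0.98, under 2-fold in both, and it did not pass a test against a 2-fold change (adjusted p = 0.252, the highest among its 14 alternatives, of which 11 called it). In A391T mice *Gria2* fell by 1.22 on the log2 scale (SE 0.05, adjusted p = 3.78e-08), from 367, 354, 369 and 353 TPM in cortex to 154, 162, 173 and 177 TPM in cerebellum, and was called in all 14 alternatives.

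*Gria3*, the X-linked AMPA receptor gene, stood at 173, 176, 165 and 161 TPM in wild-type cortex and at 73.8, 76.7, 84.7 and 75.9 TPM in wild-type cerebellum. No cerebellum library reached a cortex library, and the log2 fold change was -1.27 (SE 0.06, adjusted p = 7.74e-09) in wild-type and -1.29 (SE 0.07, adjusted p = 8.40e-08) in A391T mice. *Gria1*, which encodes a subunit tied to synaptic plasticity, was higher in cerebellum. It measured 232, 253, 274 and 213 TPM in wild-type cortex and 414, 394, 414 and 432 TPM in wild-type cerebellum, without overlap. Its log2 fold change of 0.62 (SE 0.07, adjusted p = 1.55e-05) was under 2-fold, as was that of 0.59 in A391T mice (SE 0.08, adjusted p = 8.54e-05).

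Of the NMDA receptor subunits, the obligatory one was lower in cerebellum by less than 2-fold. *Grin1* measured 214, 239, 220 and 188 TPM in wild-type cortex and 163, 176, 189 and 171 TPM in wild-type cerebellum. The ranges overlapped narrowly, between CTX480 and CBLM479. The log2 fold change was -0.45 (SE 0.07, adjusted p = 2.40e-04) in wild-type and -0.55 (SE 0.07, adjusted p = 9.22e-05) in A391T mice, whose libraries did not overlap.

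Among the GluN2 genes, *Grin2c* and *Grin2b* had larger changes than any AMPA receptor gene. *Grin2c*, the GluN2 gene of cerebellar granule cells, stood at 48.5, 54.5, 60.4 and 51.1 TPM in wild-type cortex and at 370, 381, 399.9 and 456 TPM in wild-type cerebellum. The cerebellum mean was 7.48-fold higher, with a log2 fold change of 2.75 (SE 0.08, adjusted p = 2.20e-10), and all cerebellum libraries stood above all cortex libraries. In A391T mice the values were 44.3, 50.9, 51.1 and 50.3 TPM in cortex and 408.5, 398, 337 and 387 TPM in cerebellum. There the log2 fold change was 2.86 (SE 0.10, adjusted p = 6.37e-09).

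*Grin2b*, the GluN2 gene of forebrain neurons, had the largest change of the 10. It stood at 10.2, 17.4, 18.3 and 16.5 TPM in wild-type cortex and at 0.687, 0.607, 0.952 and 0.966 TPM in wild-type cerebellum. The cortex mean was 19.5-fold higher, and the log2 fold change was -4.43 (SE 0.21, adjusted p = 6.87e-09). In A391T mice it was -4.67 (SE 0.16, adjusted p = 6.43e-09), with 13.8, 16.1, 14.6 and 12.1 TPM in cortex and 0.405, 0.543, 0.708 and 0.758 TPM in cerebellum. Cerebellum libraries held from 34 to 66 counts on this gene, above the 3 counts that a count of 0 allows.

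*Grin2d*, which encodes a slowly deactivating subunit, did not pass in either genotype. It stood at 14.7, 17.1, 18.6 and 12.8 TPM in wild-type cortex and at 17.3, 17.1, 17.4 and 17.1 TPM in wild-type cerebellum, where the 4 libraries lay within a ratio of 1.02 while the cortex libraries spread on both sides of them. The log2 fold change was -0.02 (95% interval -0.24 to 0.19, adjusted p = 0.83). In A391T mice it was -0.12 (95% interval -0.27 to 0.04, adjusted p = 0.169). *Grin3a* encodes a GluN3 subunit that lowers calcium flow. It measured 8.13, 9.07, 9.09 and 6.98 TPM in wild-type cortex and 6.62, 6.21, 7.67 and 6.68 TPM in wild-type cerebellum, with overlap, and a log2 fold change of -0.44 (SE 0.09, adjusted p = 9.02e-04). In A391T mice the log2 fold change was -0.73 (SE 0.13, adjusted p = 6.14e-04), again under 2-fold. The other GluN3 gene, *Grin3b*, is not among the 10 and was near the limit of counting in cortex, with 6 to 11 counts per library. It rose in cerebellum to 31 to 56 counts, with a log2 fold change of 2.14 (SE 0.20, adjusted p = 2.23e-06) in wild-type mice, and 32.1% of its exon bases are overlapped by a gene on the other strand.

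**Figure D2:**
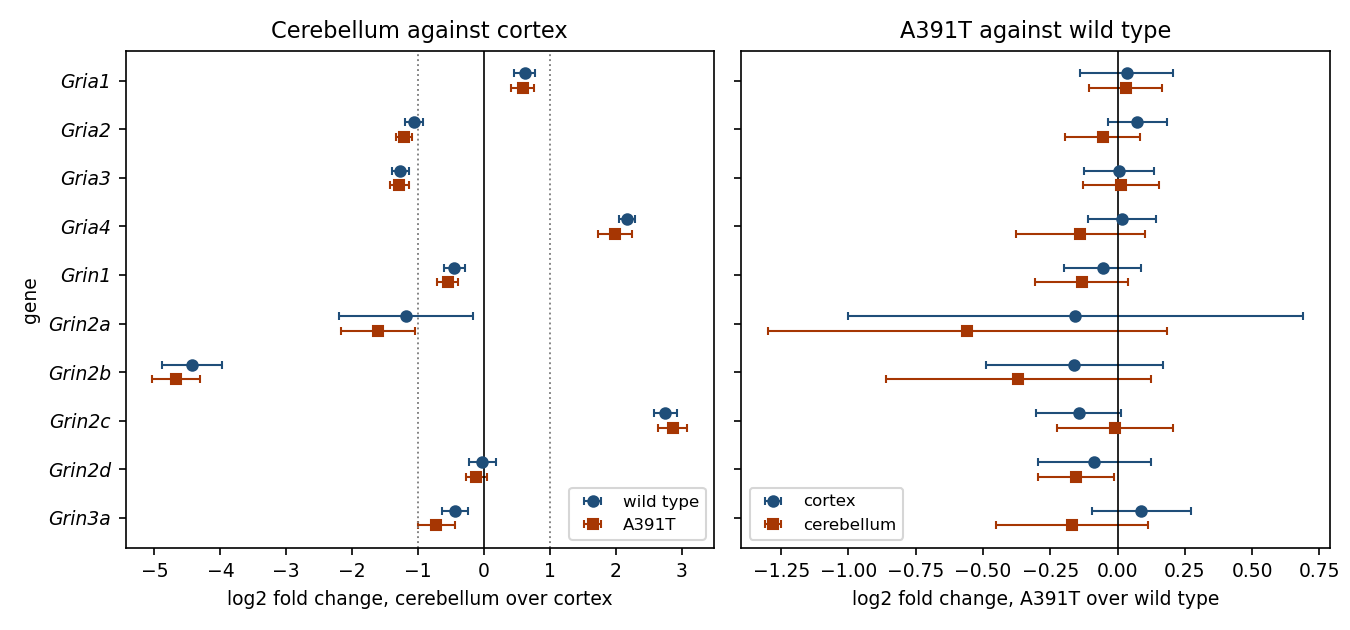
Log2 fold changes of the 10 subunits with 95% intervals from edgeR's quasi-likelihood fit, on the left cerebellum over cortex in wild-type (circles) and A391T (squares) mice with dotted lines at 2-fold, on the right A391T over wild type in cortex (circles) and cerebellum (squares). On the left *Gria4* and *Grin2c* lie right of the 2-fold line and *Grin2b* far left of it, while on the right the interval of *Grin2d* in cerebellum is the only one that leaves out 0.

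The call of *Grin2a* rested on few libraries. *Grin2a* encodes GluN2A, the GluN2 subunit that rises as forebrain synapses mature. It stood at 4.82, 14.6, 15.2 and 3.27 TPM in wild-type cortex and at 3.26, 2.78, 6.94 and 5.54 TPM in wild-type cerebellum. CTX448 and CTX479 lay above every cerebellum library, while CTX447 and CTX480 lay within the cerebellum range. Of the wild-type cortex libraries CTX480 had the lowest markers of cortical excitatory neurons, at 2452 TPM, and CTX447 the highest, at 3057 TPM. The part of cell types in this spread was not tested. The log2 fold change was -1.19 (SE 0.46, adjusted p = 0.0389), below 0 in all 14 alternatives and called in 7 of them, with adjusted p from 0.0147 to 0.679. With the mouse as a replicate block it was -1.03 (adjusted p = 0.0598). Without CTX480 it was -1.47 (adjusted p = 0.00467). The call was lost without CTX448 (-0.89, adjusted p = 0.119), CTX479 (-0.89, adjusted p = 0.121), CBLM447 (-1.04, adjusted p = 0.0992), CBLM448 (-0.99, adjusted p = 0.102) or CBLM480 (-1.26, adjusted p = 0.0604). Under the names of the RPKM table it was -0.91 (adjusted p = 0.0533). In A391T mice the levels were 8.32, 10.9, 8.56 and 6.62 TPM in cortex and 1.5, 3.42, 3.03 and 4.28 TPM in cerebellum, without overlap, and the log2 fold change of -1.61 (SE 0.25, adjusted p = 2.94e-04) was called in all 14 alternatives and with each library left out.

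The spread of *Grin2a* within groups was at the 98.7 percentile of 16589 genes, with an SD of 0.70 in log2 CPM against a median gene's 0.18. *Gria2* was at the 1.81 percentile, with 0.06, and *Grin2b* at the 76.7 percentile, with 0.30. The deviations of *Grin2a* moved with those of genes with long coding sequences. The 162 genes with at least 8000 coding bases and a mean of at least 1 CPM, a set chosen after the spread was seen, deviated from their group means by a median of 0.28 and 0.25 on the log2 scale in CTX479 and CTX448, where *Grin2a* deviated by 0.98 and 0.92. They deviated by -0.37 and -0.13 in CTX480 and CTX447, where *Grin2a* deviated by -1.23 and -0.67. In CBLM445 the long coding genes stood at -0.43 and *Grin2a* at -0.93. The deviations had the same sign in every library except CTX445, where both were within 0.03 of 0. *Grin2b* did not follow the long coding genes in every library, and deviated by 0.12 in CTX480 and by -0.11 in CBLM446, where they were at -0.37 and 0.08. The part of this pattern in the call of *Grin2a* was not tested.

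**Figure D3:**
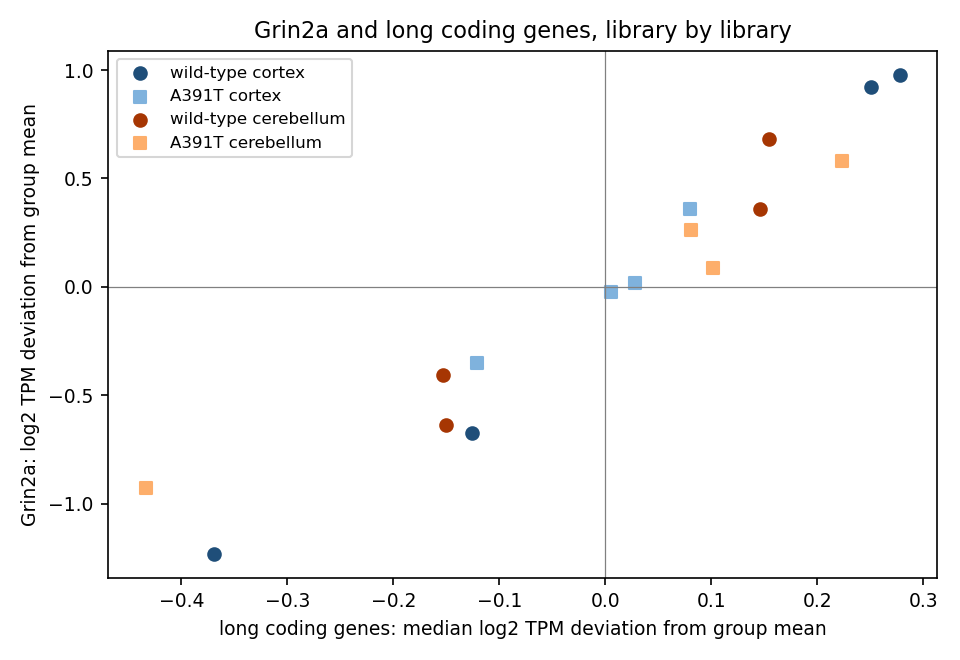
Deviation of *Grin2a* from its group mean (y axis, log2 TPM) against the median deviation of the 162 genes with long coding sequences (x axis, log2 TPM), 1 point per library, with colours and shapes by group. The points run from CTX480 and CBLM445 at the lower left, at -1.23 and -0.93 for *Grin2a*, to CTX448 and CTX479 at the upper right, at 0.92 and 0.98.

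Marker genes of several cell types also differed between the regions, and 2 regions alone cannot link a cell type to a subunit. Summed granule cell markers ran from 36.8 to 52.7 TPM in wild-type cortex and from 2811 to 3003 TPM in wild-type cerebellum, and 7 of 7 were called higher in cerebellum. Purkinje cell markers ran from 739 to 870 TPM and from 6620 to 7316 TPM, with 6 of 7 called higher. Markers of Bergmann glia and astrocytes ran from 1075 to 1193 TPM and from 1519 to 1598 TPM, with 4 of 7 called higher and 1 lower. Markers of cortical excitatory neurons ran from 2452 to 3057 TPM in cortex and from 1136 to 1241 TPM in cerebellum, with 6 of 7 called higher in cortex, and *Fezf2*, a marker of deep-layer neurons, had no count in 3 cerebellum libraries. Markers of cortical interneurons, with 4 of 5 called, and of striatum, with 5 of 6 called, were also higher in cortex. Of the other lists, 5 of 5 choroid plexus markers were called higher in cerebellum, 1 of 4 markers of oligodendrocyte precursors higher in cortex, 2 of 4 hippocampal markers in each direction, and 0 of 5 blood markers in either. The part of these cell types in the differences between regions was not tested.

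Within each library the 4 AMPA receptor genes were set against their sum. The sum was 814 ± 35.0 TPM (SD, n = 4) in wild-type cortex and 993 ± 42.0 TPM in wild-type cerebellum. The share of *Gria2* was 41.6% ± 1.62 in cortex, with libraries from 39.6% to 43.6%, and 18.1% ± 0.765 in cerebellum, with libraries from 17.7% to 19.2%. *Gria4* took 7.92% ± 0.169 in cortex and 32.4% ± 0.259 in cerebellum, *Gria1* took 29.8% ± 2.26 and 41.7% ± 1.07, and *Gria3* took 20.7% ± 0.744 and 7.83% ± 0.400. For each TPM of the other 3 genes there was thus 0.712 ± 0.0476 TPM of *Gria2* in cortex and 0.221 ± 0.0115 TPM in cerebellum. In A391T mice the share of *Gria2* was 42.4% ± 0.594 in cortex and 17.9% ± 1.27 in cerebellum. The shares are levels of RNA, and neither editing of the *Gria2* transcript nor protein was measured.

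The 4 GluN2 genes were summed in the same way. The sum was 94.5 ± 16.2 TPM in wild-type cortex and 424 ± 39.3 TPM in wild-type cerebellum, against 215 and 175 TPM of *Grin1*. The sum was thus 0.440 ± 0.0597 of the *Grin1* level in cortex and 2.43 ± 0.255 of it in cerebellum. *Grin2c* took 57.3% ± 4.85 of the sum in cortex and 94.6% ± 0.453 in cerebellum. *Grin2b* took 16.5% ± 2.72 in cortex and 0.188% ± 0.0315 in cerebellum, *Grin2a* 9.41% ± 5.14 and 1.08% ± 0.416, and *Grin2d* 16.8% ± 1.45 and 4.09% ± 0.374. In A391T mice *Grin2c* took 56.5% ± 2.21 in cortex and 95.3% ± 0.577 in cerebellum. Reads outside the annotated exons of a gene were not counted, and the gene lengths of the deposited table differ from the NCBIM37 annotation used here, for *Grin2a* 7081 against 5296 bases, for *Grin2b* 10477 against 8172 bases, for *Grin2d* 6606 against 5862 bases, for *Grin3a* 19722 against 15779 bases, for *Gria3* 6707 against 9859 bases and for *Grin1*, to which the sums are compared, 7778 against 9700 bases, so levels of different genes carry an error that the SD does not show. In the annotation used here the longest stretch after the coding sequence (3′ untranslated region) is 117 bases for *Grin2a*. It is 402 bases for *Grin2c*, 897 for *Grin2d* and 2272 for *Grin2b*. Whether reads of *Grin2a* beyond its annotated end went uncounted, which would lower its level and share, was not tested. Without division by length *Grin2c* took 45.2% of the GluN2 counts in wild-type cortex and 92.8% in wild-type cerebellum, *Grin2b* took 27.0% and 0.385%, *Grin2d* 17.4% and 5.28%, and *Grin2a* 10.4% and 1.49%. On that scale *Grin2b* was above *Grin2d* in cortex, where their TPM levels were close.

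**Figure D4:**
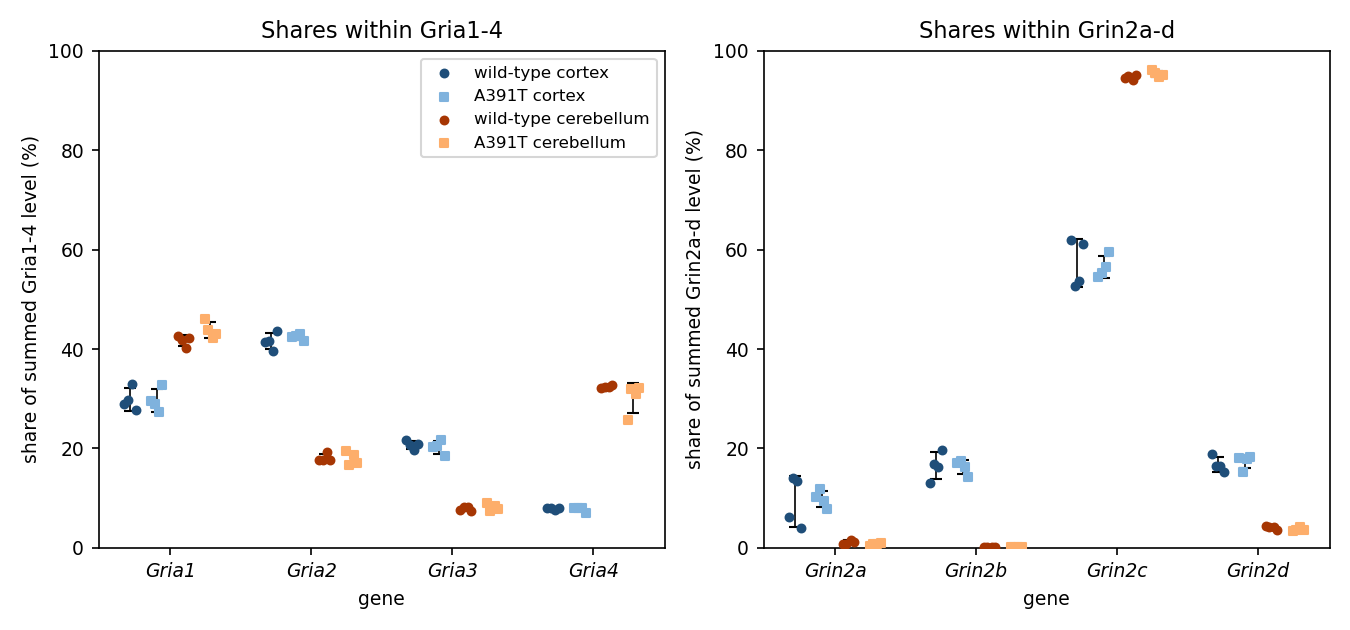
Share of each gene in the summed TPM of *Gria1* to *Gria4* (left) and of *Grin2a* to *Grin2d* (right), in percent, with 1 point per library, circles for wild-type and squares for A391T mice, blue for cortex and orange for cerebellum, and black bars for the mean ± SD of 4 libraries. *Gria2* stands near 42% in cortex and near 18% in cerebellum, and *Grin2c* takes about 95% of the GluN2 sum in all cerebellum libraries.

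AMPA receptors are assembled with auxiliary subunits that steer their traffic and gating. In wild-type mice 10.5% of all genes were called higher in cerebellum and 14.2% higher in cortex. Of 13 auxiliary subunit genes tested, 2 were called higher in cerebellum, a share near that of all genes, and 6 higher in cortex, with a median log2 fold change of -0.39 beside 0.02 over all genes. *Shisa6*, a modulator that limits desensitization, rose from 6.38 ± 2.06 TPM in cortex to 92.0 ± 10.9 TPM in cerebellum (log2 fold change 3.70, SE 0.18), and *Cacng5*, a member of the TARP family, from 5.24 ± 1.83 to 40.3 ± 3.87 TPM (2.80, SE 0.18). *Cacng3*, another TARP, fell from 311 ± 12.5 TPM in cortex to 18.1 ± 1.83 TPM in cerebellum (-4.25, SE 0.08). The cornichon gene *Cnih3* fell from 93.2 ± 8.19 to 6.16 ± 4.58 TPM (-4.07, SE 0.34), and *Shisa7* from 55.9 ± 11.6 to 7.49 ± 1.26 TPM (-3.05, SE 0.15). *Cacng2*, which encodes stargazin, the TARP on which AMPA receptors of granule cells depend, stood at 103 ± 5.18 TPM in cortex against 163 ± 3.07 TPM in cerebellum, a log2 fold change of 0.51 that was under 2-fold. In A391T mice the counts were also 2 and 6 of 13, beside 9.8% and 14.9% of all genes, with a median of -0.63 beside 0.03.

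**Figure D5:**
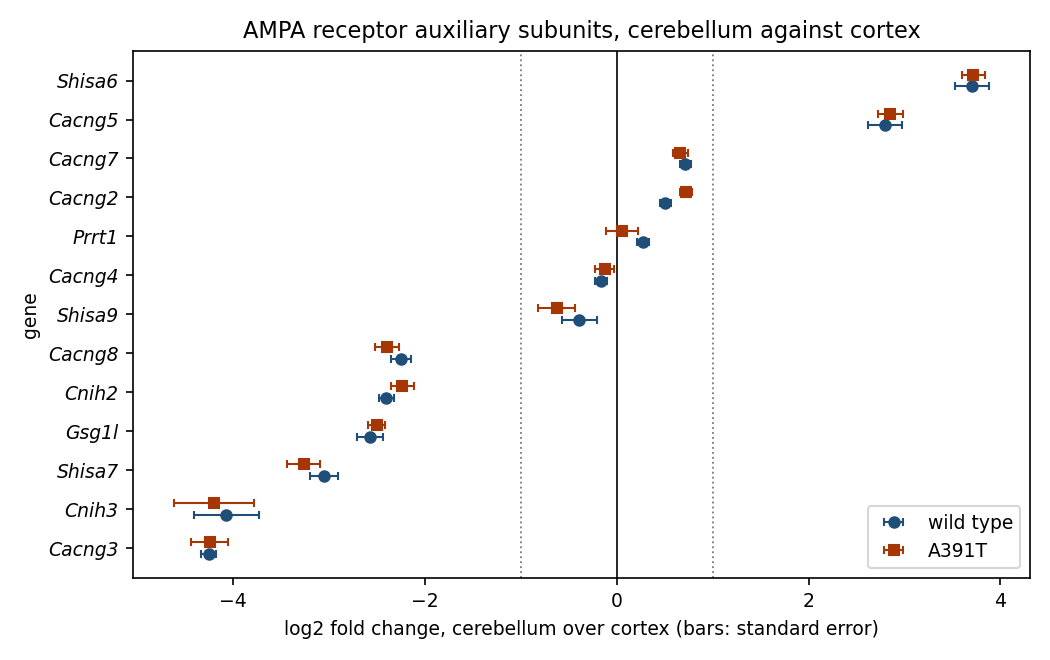
Log2 fold change, cerebellum over cortex, of the 13 auxiliary subunit genes in wild-type (circles) and A391T (squares) mice, with bars for the standard error and dotted lines at 2-fold. *Shisa6* and *Cacng5* lie right of the 2-fold line, 6 genes from *Cacng8* to *Cacng3* lie left of it, and the other 5 lie between the lines in both genotypes.

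Of 23 genes of postsynaptic scaffolds and AMPA receptor binding proteins, 1 was called higher in cerebellum and 12 higher in cortex in wild-type mice, beside 10.5% and 14.2% of all genes, with a median log2 fold change of -1.08 beside 0.02. *Homer3*, the Homer gene of Purkinje cells, rose from 5.88 ± 0.393 TPM in cortex to 298 ± 11.1 TPM in cerebellum (log2 fold change 5.51, SE 0.08). *Dlgap2*, a scaffold of the postsynaptic density, fell from 41.8 ± 11.1 to 0.958 ± 0.360 TPM (-5.59, SE 0.25). The secreted pentraxin *Nptx2*, which clusters AMPA receptors, fell from 151 ± 26.2 to 4.09 ± 1.56 TPM (-5.36, SE 0.22), and the kinase anchor *Akap5* from 56.8 ± 8.24 to 3.66 ± 0.723 TPM (-4.11, SE 0.14). In A391T mice 1 was called higher in cerebellum and 14 higher in cortex, beside 9.8% and 14.9% of all genes.

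Of 12 genes of kinases and phosphatase subunits that act on the receptors, 1 was called higher in cerebellum and 6 higher in cortex in wild-type mice, beside 10.5% and 14.2% of all genes, with a median log2 fold change of -0.93 beside 0.02. *Camk2a*, the CaMKII subunit of forebrain excitatory neurons, fell from 2093 ± 254 TPM in cortex to 65.6 ± 13.8 TPM in cerebellum (log2 fold change -5.15, SE 0.15). The tyrosine phosphatase gene *Ptpn5* fell by 3.42 on the log2 scale (SE 0.11) and the calcineurin subunit *Ppp3r1* fell by 1.83 (SE 0.09). *Camk2d* rose from 24.2 ± 0.663 to 56.0 ± 2.95 TPM (1.06, SE 0.06). In A391T mice 0 were called higher in cerebellum and 5 higher in cortex, beside 9.8% and 14.9%.

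Of 8 genes that supply or remove the co-agonists of the NMDA receptor, 3 were called higher in cerebellum and 1 higher in cortex in wild-type mice, beside 10.5% and 14.2% of all genes, with a median log2 fold change of 0.73 beside 0.02. *Dao*, the oxidase that degrades D-serine, had 0.233 ± 0.0972 TPM in cortex against 156 ± 11.3 TPM in cerebellum (log2 fold change 9.15, SE 0.14). The glycine transporter *Slc6a9* rose from 17.7 ± 4.34 to 59.0 ± 0.465 TPM (1.58, SE 0.14) and the hydroxymethyltransferase *Shmt1* from 2.48 ± 0.358 to 5.77 ± 0.698 TPM (1.06, SE 0.14). *Slc1a4*, a transporter of neutral amino acids that include serine, fell from 44.6 ± 1.08 to 20.4 ± 0.851 TPM (-1.28, SE 0.05). In A391T mice 3 were called higher in cerebellum and 2 higher in cortex, beside 9.8% and 14.9%. None of the 3 RNA editing enzymes was called in either genotype. *Adarb1*, the enzyme that edits the *Gria2* transcript, stood at 57.5 ± 10.7 TPM in wild-type cortex and 115 ± 11.7 TPM in wild-type cerebellum, a log2 fold change of 0.86 (SE 0.12, adjusted p = 5.57e-05) that was under 2-fold.

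The comparison of genotypes asks whether the A391T variant of a metal transporter goes with other receptor subunit levels. In cortex 0 of 10 subunits passed an adjusted p under 0.05 in edgeR's quasi-likelihood test, beside 0.0126% of all genes, and 0 passed at an unadjusted p under 0.05, beside 4.73% of all genes. TPM ranges of the genotypes did not overlap for 0 of 10 subunits in cortex, beside 3.24% of all genes. The log2 fold changes in cortex, A391T over wild type, ran from -0.16 for *Grin2b* and *Grin2a* to 0.09 for *Grin3a*. The 95% interval was narrowest for *Gria2*, from -0.04 to 0.18, and widest for *Grin2a*, from -1.0 to 0.69, which reaches a 2-fold lower level.

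In cerebellum 0 of 10 subunits passed, beside 0% of all genes, and 1 passed at an unadjusted p under 0.05, beside 8.55% of all genes, which is a share near that of the subunits. This was *Grin2d*, at 17.3, 17.1, 17.4 and 17.1 TPM in wild-type and at 14.7, 15.1, 14.9 and 15.0 TPM in A391T cerebellum. The genotypes did not overlap, and the log2 fold change was -0.15 (SE 0.06, unadjusted p = 0.0361, adjusted p = 0.532). With the libraries named as in the RPKM table its sign was the opposite, at 0.06. *Grin1* did not overlap either, at 163 to 189 TPM in wild-type and 143 to 160 TPM in A391T cerebellum, with a log2 fold change of -0.13 (SE 0.08, adjusted p = 0.533) that was 0.03 under the names of the RPKM table. These were 2 of 10 subunits, beside 7.83% of all genes without overlap. *Grin2a* had the widest interval, from -1.30 to 0.18, around -0.56, and *Grin2b* one from -0.86 to 0.12 around -0.37. *Gria4* had -0.14 (95% interval -0.38 to 0.10), with CBLM445 at 204 TPM below the other 7 cerebellum libraries, and -0.04 without it.

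The interaction tests whether the difference between regions depends on the genotype. None of the 10 subunits passed (0 of 10, beside 0% of all genes), and 0 passed at an unadjusted p under 0.05, beside 4.85% of all genes. The largest difference between the 2 regional log2 fold changes, A391T less wild type, was -0.42 for *Grin2a* (95% interval -1.64 to 0.81), followed by -0.27 for *Grin3a* (95% interval -0.60 to 0.07). With 1 library left out this difference ran from -0.72 to -0.14 for *Grin2a* and from -0.33 to -0.15 for *Grin3a*. For *Gria2* it was -0.14 (95% interval -0.30 to 0.02). DESeq2 also called 0 of 10 subunits in cortex, in cerebellum and for the interaction, as did the edgeR exact test in both regions. Over all genes, an unadjusted p under 0.05 was found in edgeR for 748 of 15815 in cortex, 1340 of 15668 in cerebellum and 805 of 16589 for the interaction. After adjustment 2, 0 and 0 passed. DESeq2 called 14, 37 and 1, and the exact test called 13 in cortex and 17 in cerebellum.

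For each subunit the gene with the most similar pattern was sought, by the root mean square difference of centred log2 CPM over the 16 libraries among 16588 other genes. The closest pair was *Gria3* with *Slc1a4*, at 0.06, the amino acid transporter named above. *Gria2* was nearest to *Dnalc1* at 0.07, *Grin1* to *Slmap* at 0.07, *Grin2d* to *Ift172* at 0.07, *Gria1* to *Aph1b* at 0.08, *Grin3a* to *Ptprg* at 0.08, *Gria4* to *Boc* at 0.09 and *Grin2c* to *Icmt* at 0.13. *Grin2b* was nearest to *Mef2c*, a transcription factor of cortical neurons, at 0.28, and *Grin2a* to *Xkr4* at 0.27. For these last 2 subunits no gene came closer than 0.27.

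Promoter sequences, from 250 bases before to 50 bases after the start of the gene, were matched by symbol in RefSeq for 5 of the 10 subunits, *Gria2*, *Gria4*, *Grin1*, *Grin2c* and *Grin2d*. The promoters of the 2 subunits called higher in cerebellum are shown 5′ to 3′ on the gene's strand, with matches to the GC box GGGCGG on either strand in capitals. They are given in GRCm38.p6, another build than that of the counts.
Grin2c, chr11:115267194-115267493, minus strand: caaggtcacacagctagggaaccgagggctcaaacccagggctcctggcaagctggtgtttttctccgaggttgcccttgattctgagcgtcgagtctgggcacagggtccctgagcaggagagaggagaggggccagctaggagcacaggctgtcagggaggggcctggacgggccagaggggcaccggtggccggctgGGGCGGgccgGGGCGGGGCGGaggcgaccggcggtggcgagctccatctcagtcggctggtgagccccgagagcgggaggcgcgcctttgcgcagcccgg
Gria4, chr9:4796185-4796484, minus strand: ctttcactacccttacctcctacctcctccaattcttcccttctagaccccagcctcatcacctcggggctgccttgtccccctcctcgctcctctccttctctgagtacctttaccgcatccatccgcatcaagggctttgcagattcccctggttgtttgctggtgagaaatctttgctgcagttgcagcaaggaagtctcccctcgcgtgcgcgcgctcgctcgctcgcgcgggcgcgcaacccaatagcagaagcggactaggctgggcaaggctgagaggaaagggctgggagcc
The GC box occurred 3 times in the window of *Grin2c*, with overlap between the last 2 matches, and in 35.7% of all 32851 promoters. It occurred once in that of *Grin1* and not in those of *Gria2*, *Gria4* and *Grin2d*. Neither the TATA box TATAAA, found in 13.6% of all promoters, nor the cAMP response element TGACGTCA, found in 1.79%, occurred in any of the 5 windows. CG dinucleotides numbered 33 in *Grin1*, 26 in *Gria2*, 22 in *Grin2c*, 17 in *Gria4* and 12 in *Grin2d*, against a median of 7 over all promoters.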

How the data were processed

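The authors made polyA-selected directional libraries, used STAR with the mm9 genome for alignment and HTSeq, ignoring strand, for counting. The deposited counts are whole numbers per Ensembl gene and are not normalized. The authors also deposited RPKM values with a gene length per gene, used here for lengths, names and an alternative. TPM was computed from counts and these lengths. The test on counts was that of edgeR 4.0.16 under R 4.3.3 (quasi-likelihood test, filterByExpr, TMM, Benjamini-Hochberg adjustment over all genes tested), on the 8 libraries of a comparison, or 16 for the interaction. Regions were called at an adjusted p under 0.05 and 2-fold, genotypes and the interaction at an adjusted p under 0.05. Scripts were tested on simulated data. DESeq2 1.42.0, the edgeR exact test, other scalings and filters, other library names and each library left out were alternatives, and the libraries that stand apart in markers were left out as an alternative chosen after seeing the data. Genes named were the 10 members, *Grin3b*, the nearest gene of each member and, per list, up to 3 called genes in each direction with the largest change; *Cacng2*, *Adarb1* and genes of the library checks were named after their values were seen. The members, though defined by gene name alone, and the lists were chosen with earlier results of these data known.

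Cortex and cerebellum libraries with the same mouse number come from the same animal. Deviations from group means of the 2 libraries of 1 mouse had correlations across 16589 genes from -0.09 to 0.12 in wild-type and from -0.10 to 0.02 in A391T mice. Libraries of different mice gave -0.17 to 0.15 and -0.10 to 0.09, so the correlations did not set the pairs of 1 mouse apart. Nothing else was left out. Depth is given as counts on genes. Coordinates and exon overlaps are from the GENCODE annotation of NCBIM37.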

Additional observations from a re-analysis of the deposited data

Results flagged for a closer look

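*Grin2c* stood at 44.3 TPM in CTX445, below the other A391T cortex libraries at 50.3 to 51.1 TPM, and this gap was 0.886 of the range of the 4 libraries, above Dixon's critical value at the 95% level. It was the only such value among 40 groups of 4 libraries, where chance gives about 2.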

How the results depend on the processing

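The number of subunits called between regions was 6 in wild-type mice, beside 3955 of 16040 genes. It was 4 with library totals (beside 4011 of 16040 genes), with the mice named alike in both sources (3924 of 16260) or in the test against a 2-fold change (2926 of 16040). It was 5 with the mouse as a replicate block (3958 of 16040), with DESeq2 (3945 of 16040) or with the names of the RPKM table (3817 of 16004). With 1 library left out it was 5 to 6, beside 4005 to 4097 genes. In A391T mice the number was 6 in all alternatives except that without the fold criterion, beside 2854 of 16005 to 5009 of 25874 genes. Without the fold criterion it was 9, beside 62.8% of all genes, and in wild-type mice also 9, beside 67.8%. No subunit was called between genotypes or for the interaction in any alternative that was run, the block included, and the edgeR exact test has no interaction. Over all genes the most calls among these were 37 of 15668, by DESeq2 in cerebellum. No log2 fold change called between regions changed sign. The calls that were lost, all in wild-type mice, were those of *Grin2a* and *Gria2* given above, and the block changed no call of a subunit other than that of *Grin2a*. Library totals moved the median log2 fold change of all genes, cerebellum over cortex, from 0.02 to 0.14 in wild-type and from 0.03 to 0.16 in A391T mice.

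The values that changed sign were all uncalled, and the cause was not tested. With library totals *Grin2d* was at 0.099 between regions in wild-type and 0.014 in A391T mice. Between genotypes in cortex, the names of the RPKM table gave *Gria1* -0.036, *Grin1* 0.088, *Grin3a* -0.058 and *Grin2a* 0.20, the mice named alike gave *Gria1* -0.0016, *Grin1* 0.035 and *Grin2a* 0.045, and *Gria3* was at -0.026 without the libraries that stand apart. In cerebellum the names of the RPKM table gave *Gria3* -0.056, *Grin2d* 0.058, *Gria1* -0.017, *Grin2c* 0.048 and *Grin1* 0.034, the mice named alike gave *Gria3* -0.042 and *Grin2c* 0.038, and *Grin2c* was at 0.099 without the libraries that stand apart. For the interaction *Gria3* was at 0.0040 with at least 1 CPM in 4 libraries and 0.032 without the libraries that stand apart, *Grin2d* at 0.11 and *Gria1* at 0.0099 under the names of the RPKM table, and *Grin2d* at 0.035 with the mice named alike. With 1 library left out, *Grin2d* ran from -0.11 to 0.047 between regions in wild-type mice. In cortex *Gria3* ran from -0.026 to 0.044, *Gria1* from -0.021 to 0.082, *Gria4* from -0.013 to 0.057 and *Grin2a* from -0.43 to 0.14 between genotypes. In cerebellum *Gria3* ran from -0.0082 to 0.045, *Gria1* from -0.0034 to 0.046 and *Grin2c* from -0.087 to 0.049. For the interaction *Gria3* ran from -0.037 to 0.035, *Grin2d* from -0.15 to 0.0049 and *Gria1* from -0.067 to 0.044. Without division by gene length *Gria2* took 43.8% of the AMPA receptor sum in wild-type cortex and 19.7% in wild-type cerebellum, and *Grin2c* 45.2% and 92.8% of the GluN2 sum. Another unit, scaling or naming moved 13 levels and 25 shares of subunits by more than 1 SD.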
